A study of Mus musculus with 6 samples.

Results

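Transcripts of respiratory complex I were followed in epididymal white adipose tissue, the fat pad beside the epididymis, of C57BL/6 mice fasted for 24 h. The members were every protein-coding gene of the table whose symbol begins with Nduf, 48 genes, and the 7 ND subunit genes of mitochondrial DNA, together 55 of 45777 genes. They were sorted by textbook role into 7 core subunits encoded by mitochondrial DNA, 7 core subunits encoded in the nucleus, 29 nuclear accessory subunits, 8 assembly factors, 2 genes that carry the name but whose products are not counted as complex I subunits (Ndufa4 and Ndufa4l2), and 2 extra copies of Ndufb4 (Ndufb4b and Ndufb4c). The 3 libraries labelled KO are described as Adipoq-Cre; Pak4 flox/flox, in which an adipocyte-expressed Cre is meant to delete Pak4, a CDC42-activated serine/threonine kinase. The 3 libraries labelled WT are described as Pak4 flox/flox without Cre, so both groups carry the floxed alleles and no library came from mice without them. Whole fat pads were processed, although the labels name adipocytes as the cell type, and cells that do not express Adipoq keep Pak4 in this design.

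Complex I is the entry point of the respiratory chain for electrons from NADH. Its peripheral arm in the matrix holds the N module, which oxidises NADH on a flavin, and the Q module, which passes electrons along iron-sulfur clusters to ubiquinone. Its membrane arm has a proximal part, next to the Q module, and a distal part, and pumps protons out of the matrix. The core subunits carry out catalysis, the accessory subunits surround and stabilise them, and assembly factors join the parts and then leave. Because the ND subunits are translated in mitochondria and all others in the cytosol, both genomes supply the complex. White adipocytes have fewer mitochondria than brown ones and use them, among other tasks, to support lipid turnover in fasting.

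No promoter or protein was measured. The promoter windows of the 4 accessory subunits with the smallest p-values are shown because the results below turn most on these genes, and they are the RefSeq windows of GRCm38.p6, running from 250 bases before the start of the gene to 50 after it, 5′ to 3′. Capitals mark the searched motifs, on either strand: CCGGAAG (bound by ETS factors such as GABP), GGGCGG (bound by SP1), ATGGCGGC (bound by YY1), TGACGTCA (the cAMP response element) and a relaxed NRF1 site, the palindromic NRF1 motif with any base allowed at 1 position inside it. The window of Ndufc1 holds none of them.
Ndufb6, chr4:40279372-40279671, minus strand: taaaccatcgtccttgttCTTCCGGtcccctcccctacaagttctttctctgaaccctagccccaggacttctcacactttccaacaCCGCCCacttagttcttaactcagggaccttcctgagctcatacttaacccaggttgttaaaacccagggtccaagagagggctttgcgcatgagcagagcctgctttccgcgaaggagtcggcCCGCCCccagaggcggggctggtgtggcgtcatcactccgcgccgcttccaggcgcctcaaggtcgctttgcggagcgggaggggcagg
Ndufab1, chr7:122101799-122102098, minus strand: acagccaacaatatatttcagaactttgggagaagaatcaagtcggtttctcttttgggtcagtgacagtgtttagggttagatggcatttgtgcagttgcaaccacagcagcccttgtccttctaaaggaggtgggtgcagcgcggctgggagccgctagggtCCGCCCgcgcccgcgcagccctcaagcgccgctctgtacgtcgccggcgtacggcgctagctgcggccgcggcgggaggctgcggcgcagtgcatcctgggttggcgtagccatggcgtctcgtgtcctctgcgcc
Ndufa8, chr2:36049289-36049588, minus strand: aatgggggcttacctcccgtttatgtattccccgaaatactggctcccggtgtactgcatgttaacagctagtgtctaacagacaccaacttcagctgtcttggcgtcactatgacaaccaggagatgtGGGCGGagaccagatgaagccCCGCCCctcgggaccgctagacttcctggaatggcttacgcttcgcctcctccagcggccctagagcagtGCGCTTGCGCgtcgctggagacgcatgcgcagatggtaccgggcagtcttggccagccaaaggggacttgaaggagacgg
Ndufc1, chr3:51408906-51409205, minus strand: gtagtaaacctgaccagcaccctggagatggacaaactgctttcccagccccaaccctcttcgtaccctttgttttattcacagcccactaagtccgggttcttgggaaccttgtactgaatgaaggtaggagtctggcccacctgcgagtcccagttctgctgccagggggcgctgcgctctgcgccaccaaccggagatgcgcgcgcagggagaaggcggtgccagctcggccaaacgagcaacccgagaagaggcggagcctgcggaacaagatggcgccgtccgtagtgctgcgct
RefSeq windows were found for 41 of the 48 Nduf genes, 43 windows in all. The relaxed NRF1 site was in 10 of the 43 (23.3%), against 4.60% of 32851 windows of all genes and 8.33% of 16402 windows of genes tested here. ATGGCGGC was in 8 of the 43 (18.6%), against 2.24% of all windows and 3.93% of windows of tested genes. GGGCGG was in 51.2% of the members' windows, 35.7% of all and 56.7% of those of tested genes. CCGGAAG was in 6 of the 43 (14%), against 8.86% of all windows and 14.9% of those of tested genes. TGACGTCA was in 3 of the 43 (6.98%), against 1.79% of all windows and 2.67% of those of tested genes. TCAAGGTCA, the site of estrogen-related receptors, was in 0 of the 43 windows, against 0.423% of all windows and 0.293% of those of tested genes. At such low shares, 0 of 43 says little. TATAAA was in 11.6% of the members' windows, 13.6% of all and 8.22% of those of tested genes. The members' windows had a median of 59.3% G and C and 20 CpG, against 52.7% and 7 for all windows and 59.3% and 18 for those of tested genes. These matches describe letters only, and no test was made.

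Pak4 itself had 815, 744 and 675 counts in the libraries labelled KO 1, 2 and 3, against 339, 337 and 358 in those labelled WT 1, 2 and 3, so it was higher where the label says it was deleted (log2 fold change 0.96 ± 0.14 (SE), edgeR quasi-likelihood test, Benjamini-Hochberg adjusted p = 0.0898). A count over the whole gene does not show whether the floxed exons are missing, and every direction below follows the labels as given. Total counts were 65230001 to 70830615 per library labelled KO and 62854465 to 72005658 per library labelled WT. The labels do not say that each replicate is a separate mouse, and the spread behind each p-value is that between libraries, which may be technical. Adipocyte markers summed to 75560 to 79948 CPM under KO labels and 75222 to 80949 CPM under WT labels, while 0 of 8 markers of epididymal epithelium and sperm passed the filter on low counts. On the first principal component of the tested genes, which held 44.1% of their variance, the library labelled KO 1 lay between those labelled WT and the other libraries labelled KO. In whole tissue, fewer cells of a type and less RNA per cell cannot be told apart. All 55 members passed that filter, and 17820 genes were tested.

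No complex I gene passed the edgeR test for a difference between the labels. The count was 0 of 55, against 3 of 17820 genes tested, or 0.0168%. DESeq2 called 1 of the 55, Ndufab1, against 6.62% of the 15656 genes it tested. At an unadjusted p under 0.05 the edgeR test passed 10 members, 1 higher and 9 lower under KO labels, and it passed 19.4% of all genes. The members' fold changes were small: 39 of 55 were within 0.2 of 0 on the log2 scale, 0 exceeded 1 in size, and the widest was that of Ndufa4l2. The 95% intervals of all 55 lay between 0.422-fold and 1.59-fold. A 2-fold difference in either direction lay outside the interval of every member except Ndufa4l2. The members' median log2 fold change was -0.03, with 18 above 0 and 37 below, and that of all genes tested was 0.02, with 9287 above 0 and 8533 below. The groups did not overlap for 10 of the 55 (18.2%), against 26.2% of all genes.

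**Figure D1:**
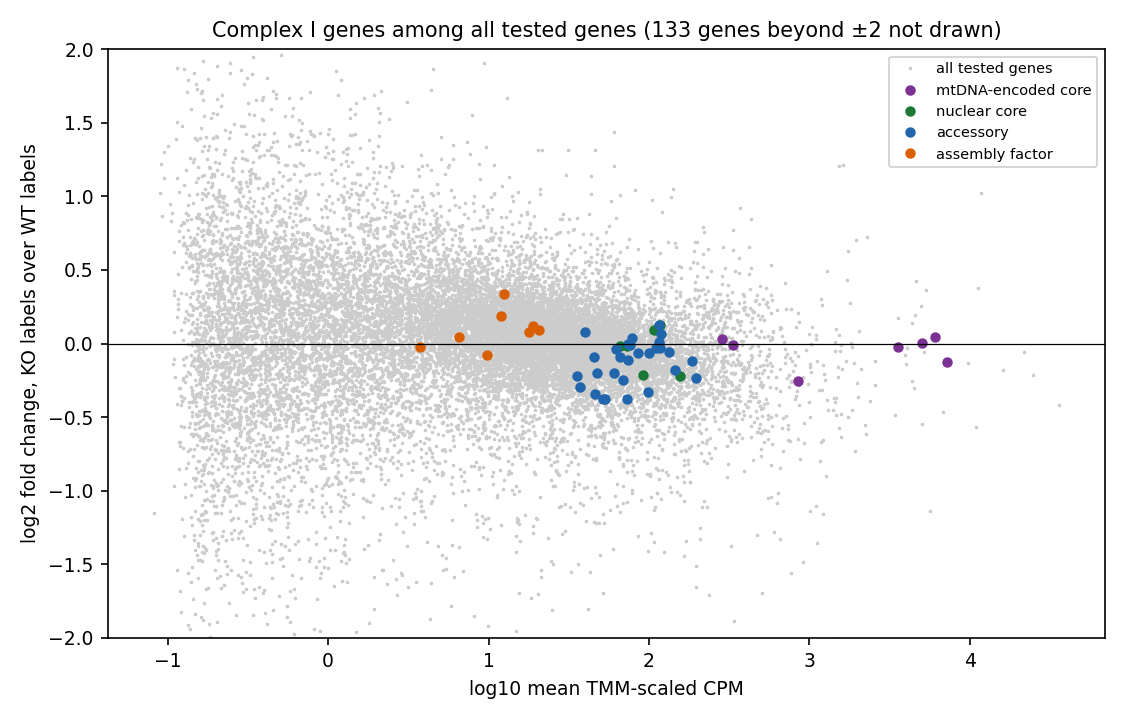
Log2 fold change, KO labels over WT labels, against the log10 mean TMM-scaled CPM of each gene, with all tested genes in grey and the complex I genes coloured by role. The core subunits of mitochondrial DNA lie at the right and close to 0, nuclear subunits lie between -0.38 and 0.13, and assembly factors lie further left, 6 of 8 above 0.

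The 7 ND subunits, the membrane-arm core made in mitochondria, overlapped between the labels. ND5, one of the antiporter-like proton pumps (positions 11742 to 13565 of the mitochondrial genome in GRCm38.p6), had 5739.8, 5513 and 7320.2 CPM in the libraries labelled KO, against 5727, 6197 and 6094 CPM in those labelled WT. ND4, another of the pumps (10167 to 11544), had 6679.8, 6046 and 8028 CPM in the libraries labelled KO, against 6923, 8403 and 7341 CPM in those labelled WT. ND2, the pump nearest the Q module, had 3598, 2897 and 4113 CPM in the libraries labelled KO, against 3212, 4211 and 3381 CPM in those labelled WT. In all 3 the library labelled KO 3 stood well above KO 2, and the WT values lay inside or near that span. ND1, which forms part of the ubiquinone entry with the Q module (2751 to 3707), had 4711, 4366 and 6061 CPM in the libraries labelled KO, against 4672, 5461 and 4949 CPM in those labelled WT. ND3, whose loop moves near the quinone site, had 319, 284 and 399.8 CPM in the libraries labelled KO, against 332, 357 and 321 CPM in those labelled WT. For both, KO 3 was again the highest library and KO 2 the lowest. ND4L, a small membrane subunit (9877 to 10173), had 789, 588 and 931 CPM in the libraries labelled KO, against 816, 1069 and 864 CPM in those labelled WT. ND6, encoded on the other strand from the rest (13552 to 14070), had 278, 264 and 325 CPM in the libraries labelled KO, against 301, 259.5 and 289 CPM in those labelled WT. Groups overlapped for 7 of 7, KO 2 was the lowest library for 6 of the 7, and the highest was KO 3 for 4 and WT 2 for 3.

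**Figure D2:**
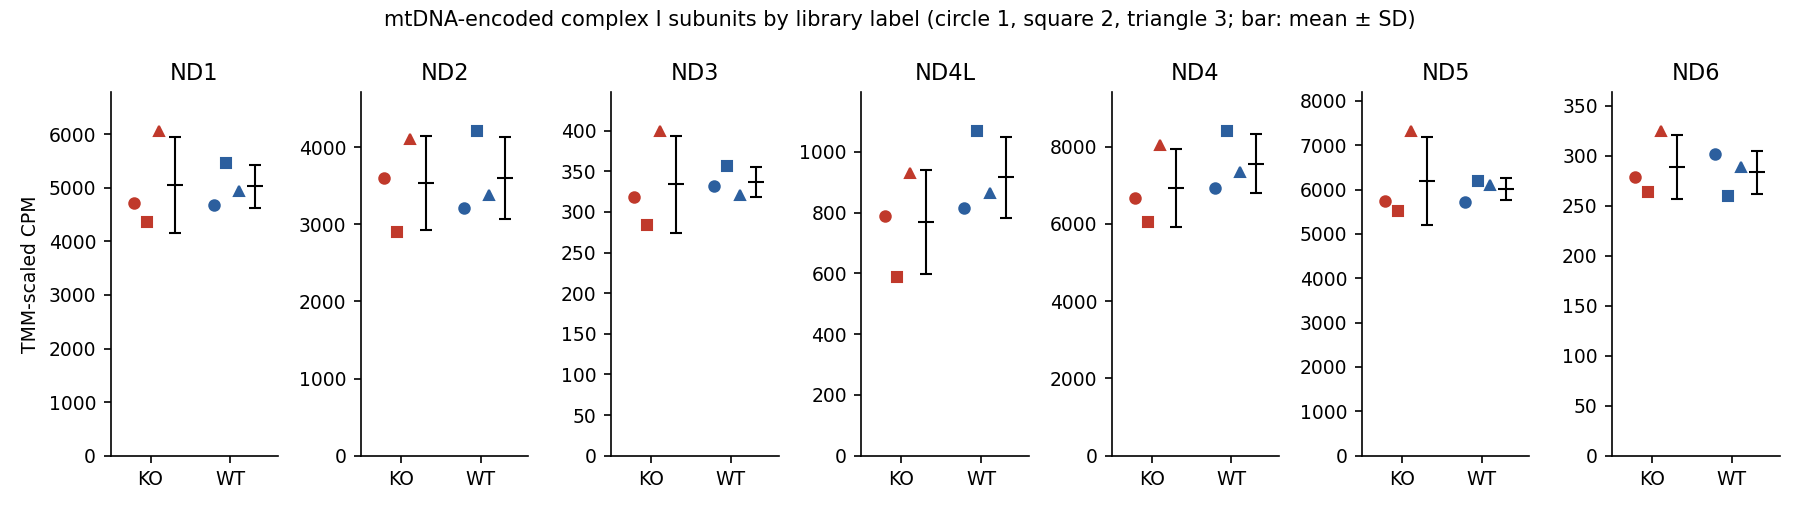
TMM-scaled CPM of the 7 ND genes in each library, KO labels left and WT labels right, with symbols for replicates 1, 2 and 3 and bars for mean ± SD. KO 3 is the highest of the KO libraries in each panel, and the groups overlap in each panel.

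The log2 fold changes of the 7 ran from -0.25 to 0.04 with a median of -0.01. The lowest, for ND4L, was -0.25 ± 0.19 (SE) with a 95% interval of 0.615 to 1.15-fold (edgeR, Benjamini-Hochberg adjusted p = 0.489). For ND4 it was -0.13 ± 0.17 and for ND5 0.04 ± 0.16, the highest. Of the 7, 0 passed even at an unadjusted p under 0.05, and their smallest adjusted p was 0.489 by the same edgeR test. ND4L and ND4 overlap by a few bases, and ND5 and ND6 overlap on opposite strands. The sources used here do not state whether counting used strand, so their counts may share reads. Summed, the 7 took 2.22%, 2.13% and 2.86% of the counts of libraries labelled KO, against 2.14%, 2.42% and 2.27% of those labelled WT. The other 6 proteins of mitochondrial DNA were all below 0, with a median of -0.12, and 0 of the 6 passed an unadjusted p under 0.05. COX1, the catalytic core of complex IV, had 21527, 20808 and 26665 CPM in the libraries labelled KO, against 24727, 28182 and 27068 CPM in those labelled WT (log2 fold change -0.21 ± 0.18 (SE), edgeR, Benjamini-Hochberg adjusted p = 0.528). COX2, which takes electrons from cytochrome c, had 3497, 3569 and 4328 CPM in the libraries labelled KO, against 4066, 4327 and 4125 CPM in those labelled WT (log2 fold change -0.14 ± 0.15 (SE), edgeR, Benjamini-Hochberg adjusted p = 0.6297). The labels overlap for both. As a share of the counts of all 13 mitochondrial protein genes, the ND genes made up 33.9%, 32.4% and 33.4% under KO labels, against 31.2%, 32.1% and 31.0% under WT labels. These shares do not overlap, and they are a description with no test.

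Nuclear core subunits, which hold the flavin, the iron-sulfur clusters and the ubiquinone site, were not called either, with 0 of 7 past the edgeR threshold. At an unadjusted p under 0.05, 1 of the 7 (14.3%) was lower, against 9.71% lower among all genes. Ndufv1 (chromosome 19), which binds NADH and the flavin, had 152, 137 and 142 CPM in the libraries labelled KO, against 162, 166 and 174 CPM in those labelled WT. Its groups do not overlap, each KO value being below each WT value (log2 fold change -0.22 ± 0.09 (SE), edgeR, Benjamini-Hochberg adjusted p = 0.235). Ndufv1 was the only 1 of the 7 (14.3%) that was lower with no overlap, near the 12.5% of all genes. Ndufv2, which carries an iron-sulfur cluster next to it, had 107, 106 and 122 CPM in the libraries labelled KO, against 110.4, 104 and 99.99 CPM in those labelled WT, and these overlap (log2 fold change 0.09 ± 0.09). Ndufs1, the large subunit that carries most clusters of the N module, had 107, 120.1 and 139.7 CPM in the libraries labelled KO, against 119.6, 107 and 109 CPM in those labelled WT. Its highest library was KO 3 and its lowest KO 1 (log2 fold change 0.13 ± 0.12 (SE), edgeR, Benjamini-Hochberg adjusted p = 0.571).

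In the Q module, Ndufs3 had 89.9, 81.9 and 81.5 CPM in the libraries labelled KO, against 105, 89.9 and 98.9 CPM in those labelled WT. The first KO library lay level with the lowest WT library and the others below all of them (log2 fold change -0.21 ± 0.09 (SE), edgeR, Benjamini-Hochberg adjusted p = 0.264). Ndufs7, which lies at the ubiquinone site, had 71.4, 58.95 and 66.3 CPM in the libraries labelled KO, against 77.6, 58.3 and 62.9 CPM in those labelled WT. Ndufs8, which carries the clusters that lead to Ndufs7, had 77.3, 58.2 and 83.4 CPM in the libraries labelled KO, against 73.2, 86.2 and 61.8 CPM in those labelled WT. The labels overlap for both genes, and their log2 fold changes were -0.01 ± 0.13 and -0.02 ± 0.17. Across the 7, 2 were above 0 and 5 below, with a median of -0.01, and the intervals ran from 0.742-fold to 1.32-fold.

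The accessory subunits lay more to the lower side under KO labels, although 0 of 29 passed the edgeR test. Of the 29, 24 had a log2 fold change below 0 and 5 above, with a median of -0.09 and a range of -0.38 to 0.12. At an unadjusted p under 0.05, 8 (27.6%) were lower and 0 higher, against 9.71% lower and 9.66% higher among all genes. The groups did not overlap for 9 of the 29 (31.0%), each with lower values under KO labels, against 12.5% lower and 13.7% higher among all genes. Abundant genes as a whole lay lower: of the 4653 tested genes whose mean CPM was at least that of the lowest nuclear subunit, 22.3% were lower with no overlap, and their median log2 fold change was -0.07. Of these 4653, 2953 were below 0 and 1700 above, and 823 (17.7%) were lower and 279 higher at an unadjusted p under 0.05. With the 7 nuclear core genes added, 10 of 36 nuclear subunits (27.8%) were lower with no overlap, near the 22.3% of those abundant genes. When counts were scaled by library size alone, without TMM, the median of all genes was 0.13 rather than 0.02. The accessory median was then 0.03 and 13 of 29 were below 0. Under both scalings 25 of 29 were below the median of all genes. A change of scaling shifts all genes nearly alike, so this count could hardly differ and is no separate support. With library size alone, 7 of the 29 were lower with no overlap (24.1%) and 1 was higher, against 7.07% lower among all genes. The share of the abundant genes was not taken under that scaling. Without KO 1, the library that stood between the groups, the accessory median was -0.13 with 22 of 29 below 0, and that of all 36 nuclear subunits was -0.11 with 26 below 0.

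Ndufb6 (chromosome 4), a distal membrane-arm subunit whose promoter window opens the set above, had 42.8, 39.4 and 40.3 CPM in the libraries labelled KO, against 51.1, 57.3 and 47.00 CPM in those labelled WT. The lowest WT library was above the highest KO library (log2 fold change -0.34 ± 0.10 (SE), edgeR, Benjamini-Hochberg adjusted p = 0.164). Ndufab1 (chromosome 7), the mitochondrial acyl carrier protein that sits in the complex and also serves fatty acid synthesis in the matrix, had 90.8, 80.2 and 89.9 CPM in the libraries labelled KO, against 116, 108 and 103 CPM in those labelled WT. It averaged 86.97 ± 5.91 CPM under KO labels and 109 ± 6.44 CPM under WT labels (SD, n = 3 each), with no overlap (log2 fold change -0.33 ± 0.09 (SE), edgeR, Benjamini-Hochberg adjusted p = 0.165). By DESeq2 it was called lower (log2 fold change -0.33, Benjamini-Hochberg adjusted p = 0.0387), the sole member so called. Ndufa8 (chromosome 2), a small subunit on the intermembrane-space side, had 51.6, 48.2 and 39.9 CPM in the libraries labelled KO, against 57.6, 62.5 and 61.2 CPM in those labelled WT. KO 3 was the lowest of all libraries and KO 1 the nearest to the WT values (log2 fold change -0.38 ± 0.11 (SE), edgeR, Benjamini-Hochberg adjusted p = 0.169). Ndufc1 (chromosome 3), a small membrane subunit, had 36.3, 32.6 and 30.9 CPM in the libraries labelled KO, against 42.3, 40.02 and 40.3 CPM in those labelled WT. All 3 KO values were below all 3 WT values (log2 fold change -0.30 ± 0.09 (SE), edgeR, Benjamini-Hochberg adjusted p = 0.172). At the other end, Ndufv3, a small N-module subunit, had 114, 120.4 and 126 CPM in the libraries labelled KO, against 115, 111 and 105 CPM in those labelled WT, and KO 1 lay below WT 1 (log2 fold change 0.12 ± 0.09 (SE), edgeR, Benjamini-Hochberg adjusted p = 0.447).

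**Figure D3:**
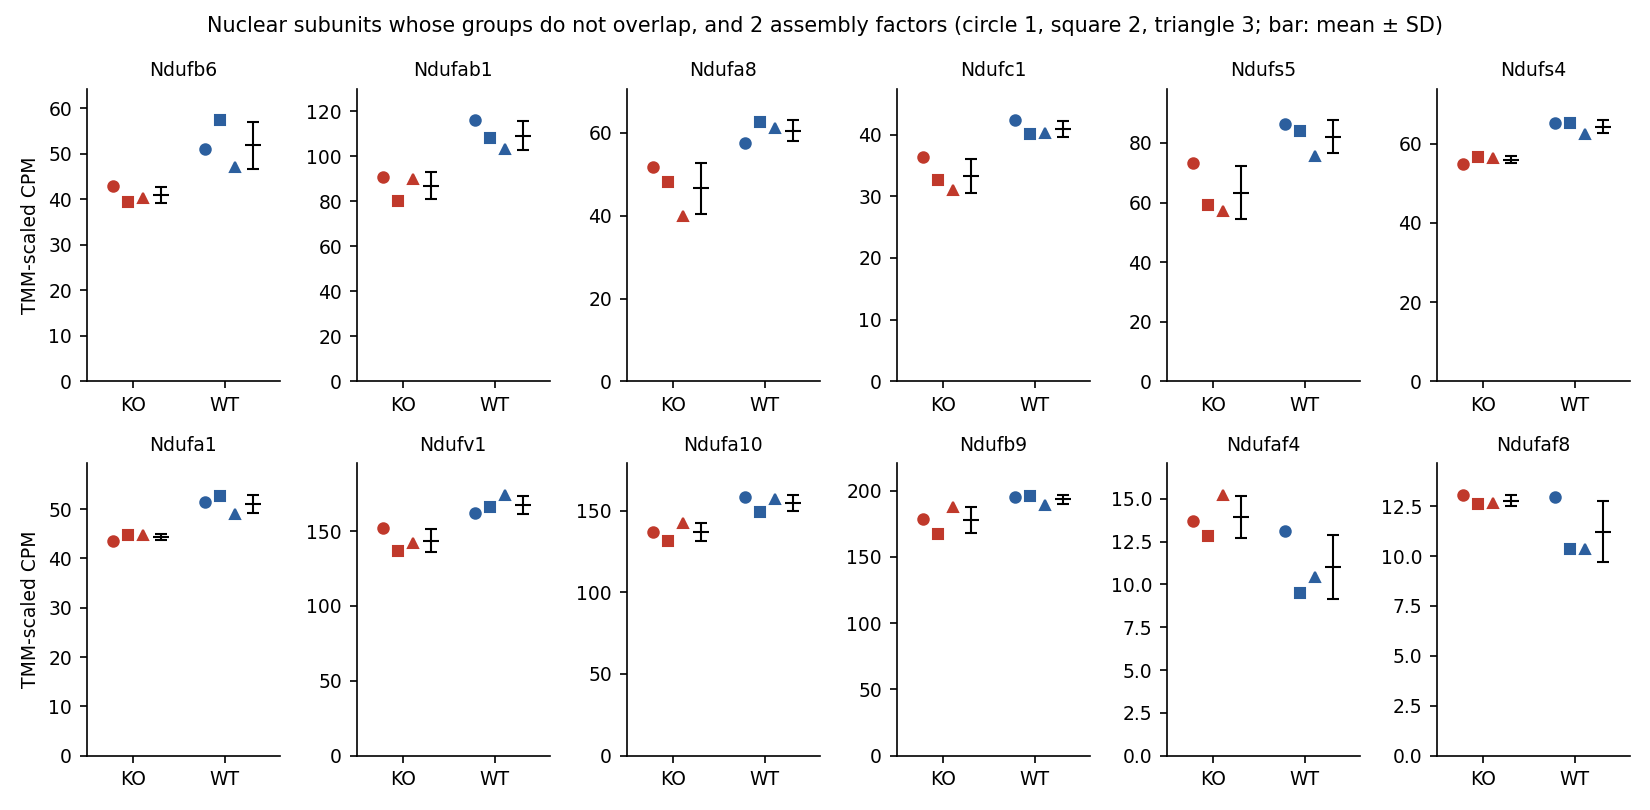
TMM-scaled CPM by library for the 10 nuclear subunits whose groups do not overlap and for the assembly factors Ndufaf4 and Ndufaf8, KO labels left and WT labels right, with bars for mean ± SD. The 10 subunits are lower in each KO library than in each WT library, while the 2 assembly factors each have WT 1 inside the KO range.

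The other accessory subunits with separate groups, named after their values were seen, were Ndufs5, Ndufs4, Ndufa1, Ndufa10 and Ndufb9. Ndufs5, another intermembrane-space subunit, had 73.4, 59.3 and 56.99 CPM in the libraries labelled KO, against 86.3, 84.04 and 75.7 CPM in those labelled WT. Without the library labelled KO 1, the edgeR test called it lower (log2 fold change -0.50, Benjamini-Hochberg adjusted p = 0.0403), and the share of all genes called was then 5.57%. With all libraries its adjusted p was 0.177 in the edgeR test. Its pseudogene Ndufs5-ps, outside the members by its biotype, had 6.005, 4.25 and 3.42 CPM with KO labels and 6.22, 6.03 and 5.87 CPM with WT labels. How reads that match both were assigned is not given, so both are uncertain. Ndufs4, which helps to hold the N module and is mutated in human Leigh syndrome, had 54.98, 56.7 and 56.3 CPM with KO labels and 65.2, 65.2 and 62.5 CPM with WT labels. All 3 KO values lay below all 3 WT values.

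Sorted by module, the 9 nuclear subunits of the proximal membrane arm had 0 above 0 and 9 below, with a median of -0.20. Of these 9, 5 were lower with no overlap (55.6%), against 12.5% of all genes and 22.3% of the abundant genes. The 11 of the distal membrane arm had 1 above 0 and 10 below, with a median of -0.12 and 3 lower with no overlap (27.3%), near the share of the abundant genes. Each subunit was counted in 1 module only, and Ndufab1, counted here, is 1 of those 3. The 8 of the N module had 3 above 0 and 5 below, with a median of -0.05 and 2 lower with no overlap (25%), also near that share. The 8 of the Q module had 3 above 0 and 5 below, with a median of -0.01 and 0 without overlap. The difference between modules was not tested. With library size as the only scaling, the proximal median was -0.08 with 6 of 9 below 0, and the distal median was -0.003 with 6 of 11 below 0. Under that scaling the N module had 6 of 8 above 0 with a median of 0.07, and the Q module 7 of 8 above 0 with a median of 0.11. Under both scalings 9 of 9 proximal and 10 of 11 distal subunits were below the median of all genes, as were 5 of 8 in the N module and 6 of 8 in the Q module. Scaling shifts all genes nearly alike, so these counts could hardly differ between the scalings. The Q median was also above 0 without KO 2 (0.055) and without WT 1 (0.047). Left out one at a time, the libraries left between 23 and 31 of the 36 nuclear subunits below 0.

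**Figure D4:**
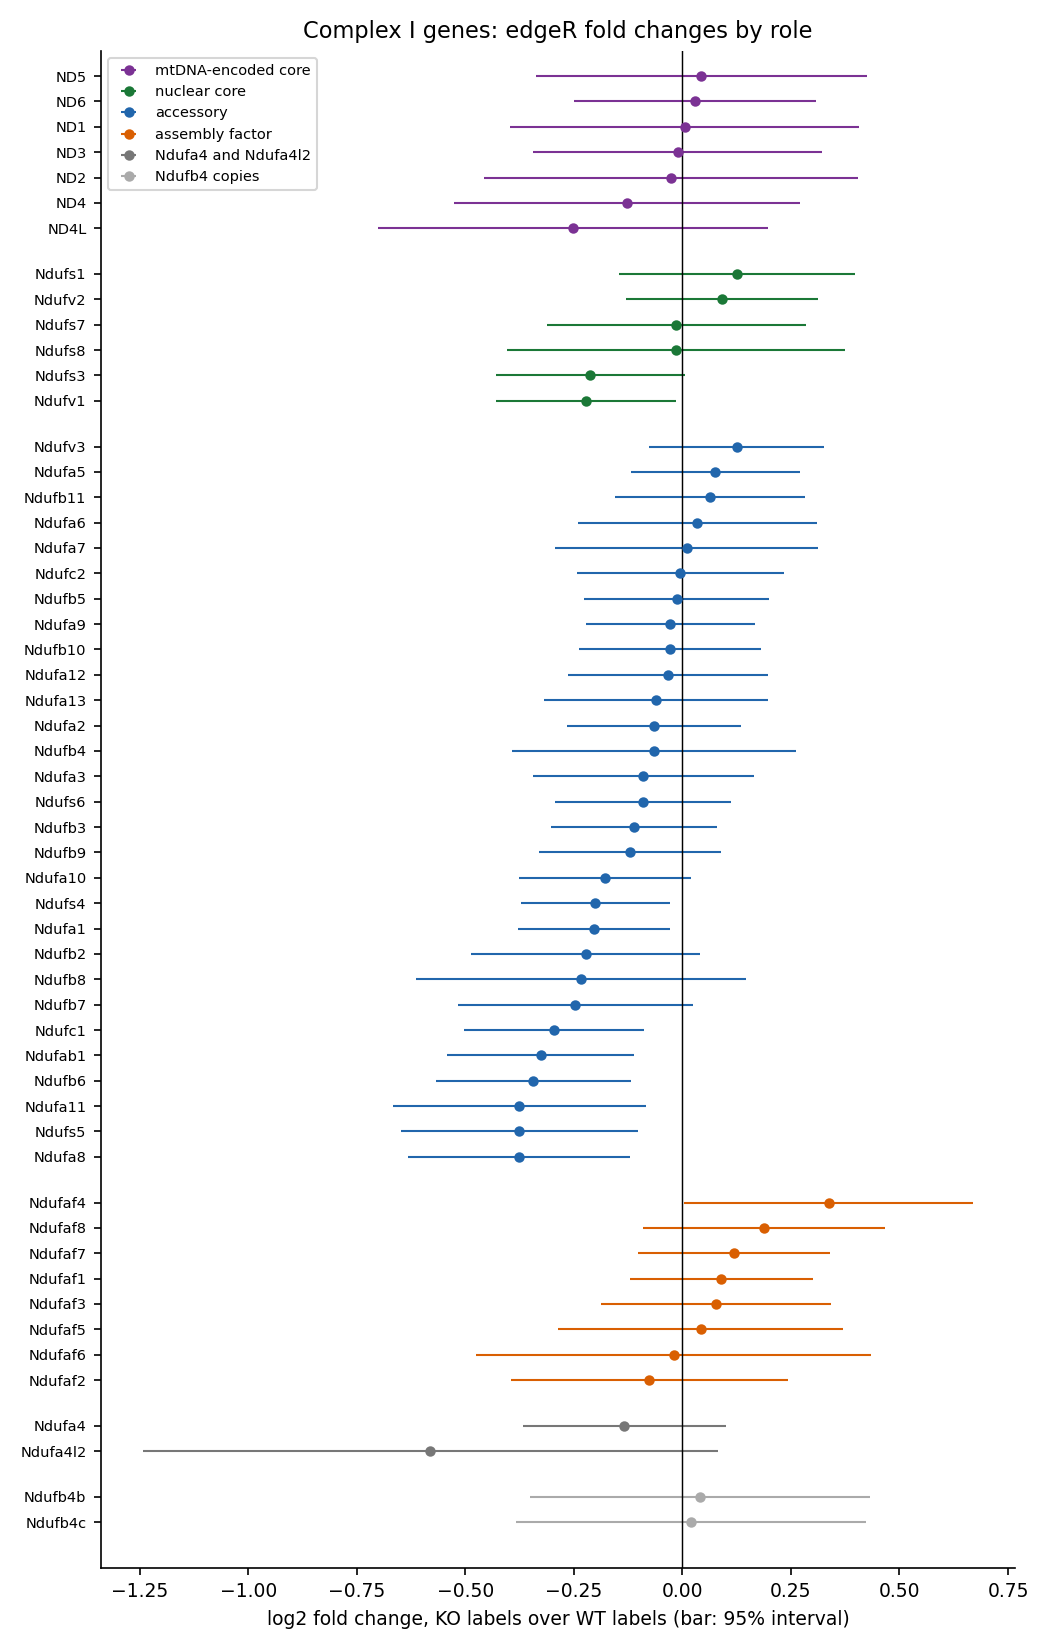
Log2 fold change of 54 complex I genes, KO labels over WT labels, with 95% intervals from the edgeR fit, grouped by role. The intervals of 7 ND subunits all cross 0, those of 8 accessory subunits lie below 0, and that of Ndufaf4 lies just above 0.

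Markers of adipocytes and of other cells in the fat pad were set beside these values. The summed adipocyte markers overlapped in TMM-scaled CPM, as given above. As a share of each library's counts they did not overlap, at 8.04% to 8.24% under KO labels and 7.34% to 7.87% under WT labels. Of the 16 genes 4 were above 0 and 12 below, with a median of -0.18 and a range of -1.14 to 1.02. At an unadjusted p under 0.05, 2 of the 16 were higher and 2 lower, against 9.66% higher and 9.71% lower among all genes. Endothelial markers summed to 247 to 266 CPM under KO labels and 292 to 374 CPM under WT labels. Of the 11, 7 were lower at an unadjusted p under 0.05, against 9.71% of all genes. Macrophage markers summed to 2223 to 2975 CPM under KO labels and 2059 to 2519 CPM under WT labels, with 14 of 14 above 0. Mesothelial markers summed to 906 to 1138 CPM under KO labels and 569 to 928 CPM under WT labels. Of the 10, 9 were above 0 and 1 below, with a median of 0.55. At an unadjusted p under 0.05, 6 were higher and 0 lower, against 9.66% higher among all genes. Smooth muscle and pericyte markers summed to 243 to 511 CPM under KO labels and 359 to 1684 CPM under WT labels, WT 2 being the highest. Skeletal muscle markers summed to 14.3 to 155 CPM under KO labels and 82.6 to 585 CPM under WT labels, and the largest part of each sum was Acta1, an actin gene, while Ckm, Myh1 and Myh4 were at or below 0.273 CPM in every library. Brown and beige adipocyte markers summed to 9.54 to 17.1 CPM under KO labels and 16.6 to 21.0 CPM under WT labels, with Ucp1 at 0.375 CPM or below in every library. Of the 8, 7 were tested, with 1 above 0 and 6 below and a median of -0.90. Of these 7, 3 were lower with no overlap (42.9%), against 12.5% of all genes. At an unadjusted p under 0.05, 2 were lower (28.6%), against 9.71% of all genes. Progenitor and fibroblast markers summed to 4592 to 6323 CPM under KO labels and 4721 to 5148 CPM under WT labels, and those of T and NK cells to 9.16 to 18.1 CPM under KO labels and 12.05 to 14.97 CPM under WT labels. The sums of B and plasma cell markers, 32.9 to 44.8 CPM under KO labels and 12.4 to 30.3 CPM under WT labels, did not overlap. Of these 8 genes 8 were above 0, with a median of 0.57. The edgeR test called 0 genes in each of these lists. DESeq2 called 6.62% of the 15656 genes it tested, 2.66% higher and 3.96% lower. It called 3 of 16 adipocyte genes, of which Cfd and Pparg were higher and Pnpla2 lower. It called 5 of 11 endothelial and 3 of 9 smooth muscle genes lower. Called higher were 3 of 14 macrophage, 2 of 10 mesothelial and 2 of 10 progenitor and fibroblast genes (Dcn and Pdgfra). It also called 1 of 10 genes of the T and NK list (Cd8a, lower) and 1 of 8 of the B and plasma list (Mzb1, higher). Of the skeletal muscle list it tested 2 and called 1 (Actn3, higher), and of the brown and beige list it tested 4 and called 1 (Cox7a1, lower). Their part in the subunit values was not tested.

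Assembly factors with the Nduf name lay mostly above 0, and 0 of 8 passed the edgeR test. At an unadjusted p under 0.05, 1 of 8 (12.5%) was higher, near the 9.66% higher among all genes. Of all genes tested, 52.1% were above 0. All 8 were less abundant than the lowest nuclear subunit, and the share of genes at their level was not taken. The difference between assembly factors and subunits was not tested. Of the 8, 6 were above 0 and 2 below, with a median of 0.08, and 0 had groups without overlap. Ndufaf4 (chromosome 4), which acts on the Q module, had 13.7, 12.8 and 15.2 CPM in the libraries labelled KO, against 13.1, 9.52 and 10.4 CPM in those labelled WT. WT 1 lay within the KO values and the other WT libraries below them (log2 fold change 0.34 ± 0.14 (SE), edgeR, Benjamini-Hochberg adjusted p = 0.254). Ndufaf8, the partner of Ndufaf5 in modifying Ndufs7, had 13.1, 12.6 and 12.7 CPM in the libraries labelled KO, against 12.98, 10.3 and 10.3 CPM in those labelled WT. The same library, WT 1, was the one that reached the KO values (log2 fold change 0.19 ± 0.12 (SE), edgeR, Benjamini-Hochberg adjusted p = 0.408). Ndufaf7, a mitochondrial protein methyltransferase, had 18.9, 21.3 and 19.1 CPM in the libraries labelled KO, against 19.3, 18.02 and 17.3 CPM in those labelled WT (log2 fold change 0.12 ± 0.10 (SE), edgeR, Benjamini-Hochberg adjusted p = 0.508). Ndufaf1, of the membrane-arm assembly complex, had 20.9, 22.5 and 20.1 CPM in the libraries labelled KO, against 21.01, 19.6 and 19.04 CPM in those labelled WT (log2 fold change 0.09 ± 0.09 (SE), edgeR, Benjamini-Hochberg adjusted p = 0.605). Ndufaf2, a late factor of the N module with the lowest fold change of the 8, had 9.56, 9.37 and 9.49 CPM in the libraries labelled KO, against 9.21, 11.9 and 8.82 CPM in those labelled WT (log2 fold change -0.08 ± 0.14 (SE), edgeR, Benjamini-Hochberg adjusted p = 0.787). The labels overlap for these genes too, and WT 3 was the lowest library for 5 of the 8. With library size as the only scaling all 8 were above 0, with a median of 0.20. Of the 8, 6 were above the median of all genes under both scalings, a count that a change of scaling can hardly alter. The groups were then higher with no overlap for 4 of the 8, against 0 with TMM, and for 4107 of all 17820 genes, against 2444 with TMM.

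Assembly factors without the Nduf name lay mostly below 0. Of 12 listed, 11 were in the table under the symbol used, and 2 of these were above 0 and 9 below, with a median of -0.05. The edgeR test called 0 of the 11, 2 were lower at an unadjusted p under 0.05, and 3 were lower with no overlap (27.3%). Among all genes 9.71% were lower at that p and 12.5% were lower with no overlap. Tmem126a, which acts on the membrane arm around ND4, had 19.3, 16.99 and 14.6 CPM in the libraries labelled KO, against 22.4, 27.4 and 22.4 CPM in those labelled WT. Its lowest WT value was above its highest KO value (log2 fold change -0.51 ± 0.14 (SE), edgeR, Benjamini-Hochberg adjusted p = 0.155), and DESeq2 called it lower (adjusted p = 0.0356, log2 fold change -0.51). Ecsit, a partner of Ndufaf1, had 19.5, 17.7 and 16.6 CPM in the libraries labelled KO, against 23.3, 21.3 and 21.7 CPM in those labelled WT with no overlap (log2 fold change -0.30 ± 0.10 (SE), edgeR, Benjamini-Hochberg adjusted p = 0.185). Acad9, an acyl-CoA dehydrogenase family member in the same assembly complex, had 42.3, 44.00 and 44.9 CPM in the libraries labelled KO, against 46.9, 49.3 and 50.7 CPM in those labelled WT and no overlap (log2 fold change -0.16 ± 0.08 (SE), edgeR, Benjamini-Hochberg adjusted p = 0.285). Both factors named for the distal membrane arm overlapped between labels. Dmac1 had 27.6, 26.2 and 24.99 CPM with KO labels and 31.6, 32.3 and 27.1 CPM with WT labels (log2 fold change -0.21 ± 0.10 (SE), edgeR, Benjamini-Hochberg adjusted p = 0.281). Dmac2 had 8.86, 11.98 and 10.4 CPM with KO labels and 8.99, 7.89 and 8.95 CPM with WT labels (log2 fold change 0.27 ± 0.14 (SE), edgeR, Benjamini-Hochberg adjusted p = 0.312).

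Genes that carry the name without being complex I subunits gave the following. Ndufa4, now assigned to complex IV, had 191, 206 and 219 CPM in the libraries labelled KO, against 234, 232 and 209.8 CPM in those labelled WT. WT 3 lay among the KO values (log2 fold change -0.13 ± 0.10 (SE), edgeR, Benjamini-Hochberg adjusted p = 0.482). Ndufa4l2, its hypoxia-induced relative, had 1.46, 1.55 and 1.396 CPM in the libraries labelled KO, against 1.44, 3.04 and 2.103 CPM in those labelled WT. The 3 KO values were close together and WT 1 was among them, while WT 2 was the highest (log2 fold change -0.58 ± 0.29 (SE), edgeR, Benjamini-Hochberg adjusted p = 0.298). Of the extra copies, Ndufb4b had 6.302, 5.45 and 5.26 CPM with KO labels and 5.86, 6.27 and 4.402 CPM with WT labels. Ndufb4c had 7.62, 6.16 and 6.62 CPM with KO labels and 7.21, 7.67 and 5.23 CPM with WT labels. Ndufb4 itself, a distal-arm subunit, had 95.3, 71.9 and 83.4 CPM with KO labels and 91.5, 97.1 and 73.8 CPM with WT labels. The labels overlap for all 3 genes. The treatment of reads that match several copies is not given, so these 3 are uncertain. Ndufb1-ps, listed as a long non-coding RNA and therefore not a member, has a gene identifier that RefSeq of GRCm38.p6 names Ndufb1, a protein-coding distal-arm subunit. It had 66.4, 54.8 and 59.6 CPM with KO labels and 71.7, 65.8 and 62.3 CPM with WT labels (log2 fold change -0.14 ± 0.10 (SE), edgeR, Benjamini-Hochberg adjusted p = 0.453).

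Levels between genes were compared per length, as the authors' TPM. ND1 had the highest mean level, 9825 TPM, followed by ND4 with 9794 TPM, ND2 with 6410 TPM, ND5 with 6249 TPM, ND4L with 5280 TPM, ND3 with 1799 TPM and ND6 with 1031 TPM. ND1 and ND4 overlapped across libraries, as did ND2, ND5 and ND4L in turn, while ND3 and ND6 each lay apart. The library kit selects poly(A) RNA, mitochondrial transcripts carry short tails, and in human cells ND6 is known to lack one, but the part of selection in these levels was not tested. Nuclear core subunits had a median of 170 TPM, and Ndufs1 was the lowest of them with 78.5 TPM. Accessory subunits ran from 36.3 TPM for Ndufa11 to 505 TPM for Ndufb9, with a median of 185 TPM, and 26 of 28 neighbours in that order overlapped. Assembly factors ran from 4.47 TPM for Ndufaf6 to 45.5 TPM for Ndufaf8, with a median of 19.7 TPM. Ndufa4 stood above all nuclear complex I subunits at 808 TPM. The median ND level was 33.3, 39.0 and 46.2 times the median nuclear core level under KO labels, against 30.6, 38.0 and 42.0 times under WT labels. The labels overlap in that ratio, and so they do in the ratio of summed ND counts to summed nuclear subunit counts, which was 6.60, 6.42 and 8.14 under KO labels, against 6.05, 7.40 and 6.998 under WT labels.

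**Figure D5:**
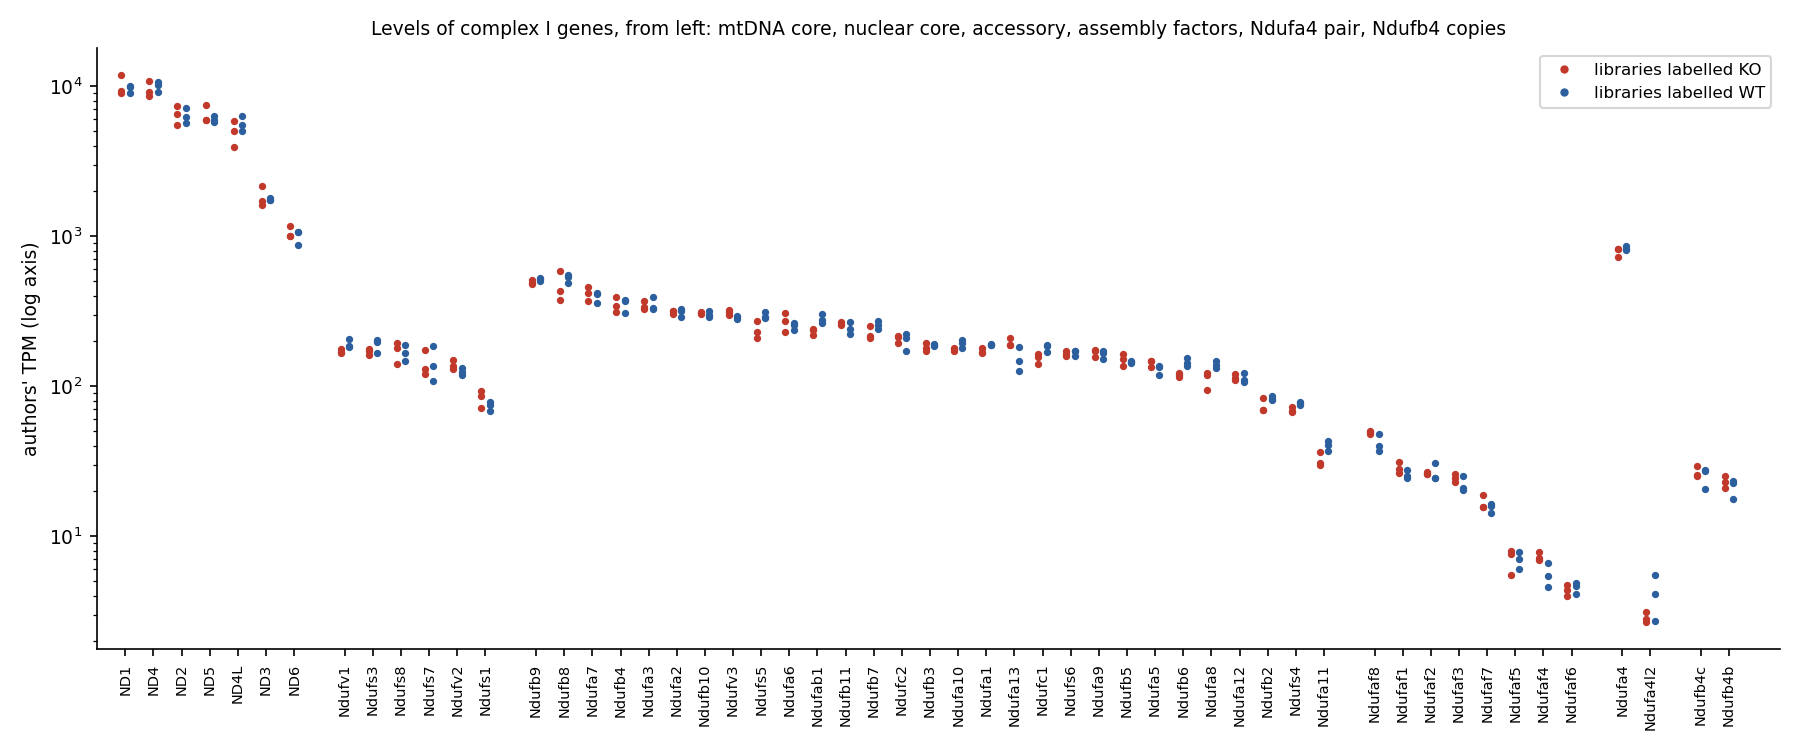
The authors' TPM of 54 complex I genes in each library on a log axis, KO labels left of WT labels for each gene, in order of mean level within each role. The ND genes lie from 879.9 to 11855 TPM, the nuclear subunits from 29.7 to 590 TPM, and the assembly factors from 3.998 to 50.3 TPM.

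Whether the groups overlapped could differ between the deposited TPM and the counts. Ndufa13, Ndufv3, Ndufaf4 and Ndufa11 had separate groups in TPM but not in CPM. Ndufb9 and Ndufa10 had separate groups in CPM but not in TPM. The gap was widest for Ndufa13, whose log2 ratio of KO over WT labels in TPM minus that in CPM was 0.43. The median of that gap over the 55 members was 0.06. Ndufa13, a proximal-arm subunit also known as GRIM-19, had 210.2, 189 and 189 TPM under KO labels, against 148, 181 and 125 TPM under WT labels, with no overlap. Its counts gave 142, 122 and 128 CPM with KO labels and 148, 140.4 and 120.4 CPM with WT labels, with overlap and a log2 fold change of -0.06 ± 0.11 (SE). The relative transcript length that links its counts to its FPKM was 1.44 in all 3 KO libraries, against 2.07, 1.54 and 2.07 in the WT libraries. Each library was scaled by the median of members with a single listed transcript, so only ratios between libraries have meaning. After that scaling, this length varied by at most 1.003-fold between libraries for the 30 members with a single listed transcript. It varied by more than 1.1-fold for 5 members, of which Ndufa13 varied most.

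Genes that act on complex I transcripts or share its substrates were counted from further lists, and the edgeR test called 0 in each. At an unadjusted p under 0.05, 1 gene per list was higher and 0 lower. That is 9.09% to 12.5% of a list, near the 9.66% higher among all genes. Among 11 genes of mitochondrial transcription and RNA stability, 7 were above 0 and 4 below, with a median of 0.14, and 5 were higher under KO labels with no overlap (45.5%), against 13.7% of all genes. Tfam, which packages and transcribes mitochondrial DNA, had 21.9, 24.96 and 23.7 CPM in the libraries labelled KO, against 19.8, 19.9 and 20.04 CPM in those labelled WT (log2 fold change 0.24 ± 0.09 (SE), edgeR, Benjamini-Hochberg adjusted p = 0.209). Tfb1m, which methylates mitochondrial ribosomal RNA, had 6.08, 6.74 and 6.72 CPM in the libraries labelled KO, against 5.96, 4.72 and 5.201 CPM in those labelled WT (log2 fold change 0.30 ± 0.14 (SE), edgeR, Benjamini-Hochberg adjusted p = 0.273). For both, each KO value was above each WT value. Among 8 regulators of respiratory genes, 6 were above 0 and 2 below, with a median of 0.10. Of these 8, 2 (25%) were higher with no overlap, against 13.7% of all genes. Ppargc1b, a coactivator of respiratory genes, had 11.8, 9.07 and 13.4 CPM in the libraries labelled KO, against 6.43, 5.31 and 7.42 CPM in those labelled WT. All 3 KO values were above all 3 WT values (log2 fold change 0.84 ± 0.18 (SE), edgeR, Benjamini-Hochberg adjusted p = 0.134), and DESeq2 called it higher (adjusted p = 0.00436, log2 fold change 0.83). Nrf1, the factor whose relaxed site was searched above, had 14.2, 14.2 and 14.01 CPM in the libraries labelled KO, against 11.96, 12.01 and 12.8 CPM in those labelled WT, also with no overlap (log2 fold change 0.21 ± 0.09 (SE), edgeR, Benjamini-Hochberg adjusted p = 0.259). Among 8 enzymes and proteins that supply or share NADH and quinone, 6 were above 0 and 2 below, with a median of 0.09. Here too 2 of the 8 (25%) were higher with no overlap, against 13.7% of all genes. Sqor, which passes electrons from sulfide to quinone, had 173, 173 and 193 CPM in the libraries labelled KO, against 156, 147 and 148 CPM in those labelled WT (log2 fold change 0.26 ± 0.09 (SE), edgeR, Benjamini-Hochberg adjusted p = 0.202). Dhodh, the quinone-linked enzyme of pyrimidine synthesis, had 11.9, 12.1 and 13.3 CPM in the libraries labelled KO, against 11.8, 11.3 and 10.5 CPM in those labelled WT (log2 fold change 0.16 ± 0.10 (SE), edgeR, Benjamini-Hochberg adjusted p = 0.417). Both had each KO value above each WT value.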

How the data were processed

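RNA of whole epididymal fat went into a strand-preserving poly(A) library kit, per the labels' protocols, and titles gave the groups. HISAT2 2.1.0, Bowtie2 2.3.4.1, StringTie 2.1.3b and the build mm10 are listed in the submitters' processing notes. The use of strand in counting and the handling of reads with several matches are not given in the sources used here. The authors deposited 1 table of 45777 genes. The deposited read counts are whole numbers with no normalization, per the file headers and values, and entered every test. The deposited TPM, scaled by the authors per transcript length and library, served to compare levels between genes. The deposited FPKM of the authors served to derive the relative transcript length behind each count.

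Low counts were removed by filterByExpr, at a minimum count of 10 and a minimum total of 15. A robust quasi-likelihood model on the label was fitted after TMM scaling (edgeR 4.0.16 in R 4.3.3), with a two-sided test, Benjamini-Hochberg adjustment over all 17820 genes and a threshold of 0.05. CPM are counts scaled to the TMM-adjusted library size. A fold change is KO labels over WT labels, its SE is that for which the squared ratio equals the F statistic, and intervals are 95% intervals from the same fit. The code was tested on simulated data. Groups do not overlap where each value of one label lies beyond each value of the other. The common biological coefficient of variation was 0.200, and 88 counts of Ndufa4l2 in the library labelled WT 1 came to 1.44 CPM. DESeq2 1.42.0, limma 3.58.1, other scalings, no filter, the replicate number as a block and each library left out were alternatives.

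The members, roles, modules and lists were chosen with earlier results of these data known. The text names the core members other than 1 that is not reported here, the 4 accessory subunits and assembly factors with the smallest p and the highest and lowest of each, Ndufa4, Ndufa4l2 and the copies, and the 2 smallest p of each further list. Other members were named after their values were seen. No list was tested as a set.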

Additional observations from a re-analysis of the deposited data

How the results depend on the processing

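Of the 55 complex I genes, 0 were called by the edgeR test with all libraries, 1 by DESeq2 (Ndufab1) and 0 to 1 with each library left out (Ndufs5, without KO 1). The 3 genes called among all those tested became 1036 with DESeq2, 5 with limma voom, and 1 to 1016 with each library left out, the 1016 without KO 1, 5 without WT 1, 2 without KO 2, and 1 without KO 3, WT 2 or WT 3. The cause was not tested. With library size as the only scaling, the median log2 fold change was 0.11 for nuclear core subunits and 0.026 for accessory subunits, against -0.01 and -0.09 with TMM. That scaling moved the median of all genes from 0.02 to 0.13, and both sets stayed below it. All genes shift nearly alike between scalings, so this was given by the method. With each library left out, the medians ran from -0.15 to 0.09 for the ND genes (lowest without KO 3, highest without KO 2), from -0.07 to 0.06 for nuclear core subunits, from -0.16 to -0.08 for accessory subunits and from 0.04 to 0.15 for assembly factors. Of the named genes' values under the alternatives, 514 kept their direction and side of the threshold, 33 uncalled ones changed sign, 3 became called (Ndufab1, Tmem126a and Ppargc1b with DESeq2) and 0 called ones reversed. Same-numbered libraries did not deviate together (correlations of -0.17, -0.02 and 0.05 for numbers 1, 2 and 3). This gave no sign of pairing by number, but 3 libraries per label cannot exclude it. The replicate block called 1 gene of all and 0 of the 55. The least abundant, Ndufa4l2, had 98, 108 and 104 counts under KO labels and 88, 204 and 129 under WT labels.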
